A study of Homo sapiens with 24 samples.

Results

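The 7 genes described here encode enzymes of the pentose phosphate pathway (PGLS, PGD, RPIA, RPE, TALDO1 and TKT) and the cytosolic malic enzyme (ME1), another source of NADPH. They were chosen by their symbols, and each matched 1 row of the 61533 genes in the count tables. All 7 passed the filter on low counts in every cell line. In GENCODE 29 (GRCh38) these protein-coding genes span chr19:17511629-17521288 (PGLS), chr1:10398592-10420144 (PGD), chr2:88691644-88750935 (RPIA), chr2:210002565-210022259 (RPE) and chr11:747329-765024 (TALDO1) on the plus strand, and chr3:53224707-53256052 (TKT) and chr6:83210389-83431071 (ME1) on the minus strand. The data are RNA-seq libraries of 4 human cancer cell lines, each with 3 libraries treated for 60 s with Piezo-CAP and taken at 24 h (CAP) and 3 untreated libraries (Control, 0 s), 24 libraries in all. Piezo-CAP is cold plasma struck in air by a piezoelectric device, an ionised gas near room temperature that delivers reactive oxygen and nitrogen species. Cal27 derives from a squamous carcinoma of the tongue, Fadu from one of the hypopharynx, and A375 from a melanoma, while the name Hth83 belongs to an anaplastic thyroid carcinoma line. All 4 are labelled as cells of head and neck cancer with a wild-type genotype. Cal27, A375 and Hth83 grew in DMEM and Fadu in MEM, so that line and medium cannot be told apart for Fadu.

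The oxidative branch of the pentose phosphate pathway turns glucose 6-phosphate into ribulose 5-phosphate and reduces NADP+ to NADPH on the way. PGLS hydrolyses the lactone intermediate and PGD carries out the NADPH-forming decarboxylation of 6-phosphogluconate. In the non-oxidative branch RPIA makes ribose 5-phosphate for nucleotides, RPE makes xylulose 5-phosphate, and TKT and TALDO1 move carbon units between sugar phosphates and return them to glycolysis. NADPH keeps glutathione and thioredoxin reduced, feeds fatty acid and sterol synthesis, and is drawn on when cells meet oxidants. NRF2, encoded by NFE2L2, binds antioxidant response elements (ARE) in DNA, and PGD, TKT, TALDO1 and ME1 are among the genes known to depend on it in human cancer cells.

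Library totals ran between 27.9 and 49.5 M (mega) counts, and in Cal27 the CAP libraries (32.3 to 35.6 M) were all deeper than the Control libraries (27.9 to 30.1 M). The 37 mitochondrial genes had 0 counts in all libraries, so this sign of RNA quality could not be used. Of 8 squamous epithelium markers, 7, 0, 8 and 7 were over 10 CPM (counts scaled to the size of the library) in Control libraries of Cal27, A375, Fadu and Hth83. Of 7 melanocyte markers 0, 2, 1 and 0 were over 10 CPM in Cal27, A375, Fadu and Hth83, namely SOX10 and MITF in A375 and TYRP1 in Fadu. Of 6 thyroid markers 2, 0, 0 and 1 were in Cal27, A375, Fadu and Hth83. The summed thyroid markers in Control libraries were highest in Hth83, at 128.4 CPM, against 37, 1.7 and 20.9 CPM in Cal27, A375 and Fadu, and the libraries labelled Hth83 also carried the squamous markers. None of 6 leukocyte markers and at most 1 of 6 fibroblast markers reached 10 CPM in any group. After CAP 23.2%, 27% and 24.2% of all genes tested fell in Cal27, Fadu and Hth83, and 21.9%, 26.3% and 25.9% rose. Of the 8 squamous markers 8 fell in Cal27, 4 fell and 4 rose in Fadu and 6 fell and 2 rose in Hth83. The sum of these markers was lower, at 3175 against 4198.5 CPM in Cal27, 3570.7 against 6276 CPM in Fadu and 4737.7 against 6296.1 CPM in Hth83. The part of this shift in the results below was not tested. Nothing in the labels states that replicate libraries were separate cultures. The p-values hence cover only the spread between these libraries, which may be technical.

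The promoters that hold the core of the ARE are shown because NRF2 acts through that element. In the 300-base RefSeq windows (250 bases before to 50 after the start, GRCh38.p14), which were found for all 7 genes, the core TGACNNNGC was searched on both strands, as was the AP-1 motif TGANTCA, which can overlap it. The core was present in 3 of the 7 genes (PGD, RPE and ME1) and in 13.3% of 35116 promoters, and the AP-1 motif in ME1 alone of the 7 and in 7.71% of promoters. Capitals mark the motifs, in PGD at chr1:10398814-10399113 (plus strand), RPE at chr2:210002388-210002687 (plus strand) and ME1 at chr6:83431002-83431301 (minus strand).
PGD: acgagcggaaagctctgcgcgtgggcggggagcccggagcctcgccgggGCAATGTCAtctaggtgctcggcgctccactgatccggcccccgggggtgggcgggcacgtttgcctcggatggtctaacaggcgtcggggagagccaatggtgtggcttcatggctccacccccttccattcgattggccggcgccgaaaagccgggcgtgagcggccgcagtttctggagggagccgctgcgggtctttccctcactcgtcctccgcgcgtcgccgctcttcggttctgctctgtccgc
RPE: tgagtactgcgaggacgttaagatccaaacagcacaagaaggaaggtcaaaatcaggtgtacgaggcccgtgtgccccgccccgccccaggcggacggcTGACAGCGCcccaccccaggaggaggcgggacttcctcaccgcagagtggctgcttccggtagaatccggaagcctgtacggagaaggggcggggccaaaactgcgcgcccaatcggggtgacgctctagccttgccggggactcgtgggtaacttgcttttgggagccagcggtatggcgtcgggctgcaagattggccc
ME1: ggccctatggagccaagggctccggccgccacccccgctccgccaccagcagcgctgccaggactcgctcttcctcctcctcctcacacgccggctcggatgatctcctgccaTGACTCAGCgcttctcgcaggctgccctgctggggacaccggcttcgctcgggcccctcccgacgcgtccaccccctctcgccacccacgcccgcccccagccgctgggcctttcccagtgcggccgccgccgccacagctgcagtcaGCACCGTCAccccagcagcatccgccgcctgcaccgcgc
In PGD the core lies on the opposite strand (TGACATTGC, first base at -201 from the start), in RPE on the gene's strand (TGACAGCGC, -151). ME1 holds 2 cores, TGACTCAGC at -137, which contains an AP-1 motif, and TGACGGTGC at 11 on the opposite strand. Positions count from the RefSeq start. The PGD window lies inside the GENCODE 29 span of PGD, which begins at chr1:10398592, so its core is not upstream of that start. A match is a description of the letters, and no match in the PGLS, RPIA, TALDO1 and TKT windows says only that the core is not within those 300 bases.

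On the deposited TPM scale, which divides counts by gene length and by library, TKT lay between the 91.4 and 97.8 percentiles of the tested genes in untreated cells of the 4 lines, whereas RPIA (37.9 to 47.2) and ME1 (34.3 to 39.3) lay lower. The order of different genes rests on the lengths behind the TPM, so no finer order is given here. The deposited counts and TPM imply a length for ME1 of 10.1 times that of PGD, against 1.14 times by the exons of GENCODE 29. For RPIA it was 2.7 times, against 0.623, for TKT 1.43 times, against 3.21, and for PGLS 0.44 times, against 0.96. A gene's own length drops out when that gene is compared between lines. Its TPM still rest on the lengths of all genes, through the rescaling in each library.

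**Figure D1:**
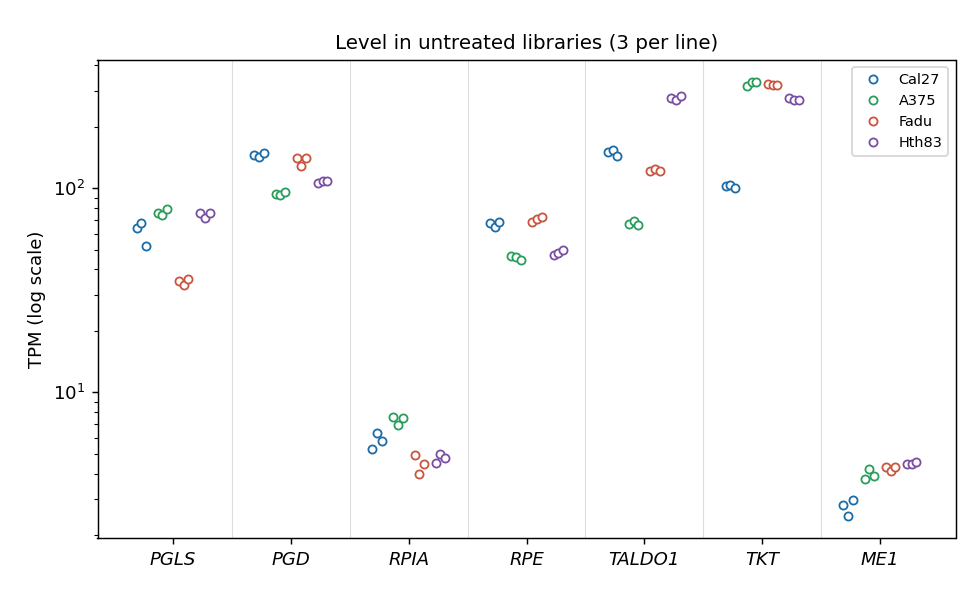
Level of the 7 genes in untreated cells, in TPM on a log axis, with 1 point per Control library and 3 libraries per line. TALDO1 was highest in Hth83 (276 TPM), PGLS lowest in Fadu (34.9 TPM) and TKT lowest in Cal27 (102 TPM).

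The lines differed in these enzymes before any treatment. TALDO1, the transaldolase, stood at 276 ± 6.34 TPM in Hth83, 149 ± 5.33 in Cal27, 123 ± 1.01 in Fadu and 67.3 ± 1.67 in A375 (SD, n = 3 each). The 4 ranges did not overlap, and Hth83 exceeded A375 by the largest margin of any of the 7 genes (A375 over Hth83, log2 fold change -2.27 ± 0.04, SE, edgeR adjusted p = 1.94e-36). PGD stood at 145 ± 2.46 TPM in Cal27, 137 ± 6.82 in Fadu, 107 ± 1.24 in Hth83 and 94.4 ± 1.41 in A375, and all 6 differences between lines passed. TKT, the transketolase, was at 327 ± 9.91 TPM in A375, 322 ± 2.77 in Fadu, 273 ± 3.03 in Hth83 and 102 ± 2.23 in Cal27. Cal27 was thus below the other 3 lines (Cal27 over A375, -1.17 ± 0.03), while A375 and Fadu overlapped in TPM.

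PGLS stood at 76.1 ± 2.78 TPM in A375, 74.5 ± 2.41 in Hth83, 61.1 ± 7.78 in Cal27 and 34.9 ± 1.24 in Fadu. Fadu was below each other line (Cal27 over Fadu, 1.21 ± 0.07, adjusted p = 7.99e-18), and the order of the other 3 depended on the scaling. RPE, the epimerase, stood at 70.4 ± 1.88 TPM in Fadu, 67.0 ± 1.95 in Cal27, 48.3 ± 1.21 in Hth83 and 45.7 ± 1.22 in A375. On TMM-scaled counts, which set the bulk of genes equal between libraries, RPE was higher in Cal27 than in Fadu (Cal27 over Fadu, 0.33 ± 0.04, edgeR adjusted p = 6.82e-09), so that the order of these lines turned with the scale. RPIA, the isomerase, stood at 7.34 ± 0.37 TPM in A375, 5.80 ± 0.516 in Cal27, 4.78 ± 0.236 in Hth83 and 4.48 ± 0.476 in Fadu, the last pair overlapping. The order of Cal27 and A375 in RPIA turned likewise (Cal27 over A375, 0.17 ± 0.08, edgeR adjusted p = 0.0567). ME1 stood at 4.49 ± 0.0491 TPM in Hth83, 4.25 ± 0.11 in Fadu, 3.96 ± 0.237 in A375 and 2.75 ± 0.258 in Cal27. Between Cal27 and A375 the ME1 counts scaled by TMM did not pass (-0.02 ± 0.05, adjusted p = 0.76).

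Of the 42 tests of a gene between untreated lines 38 passed an adjusted p of 0.05. Differences between lines were common, since of all 21975 genes 79.7% passed for Cal27 over A375, 72.7% for Cal27 over Fadu, 72.2% for Cal27 over Hth83, 78.5% for A375 over Fadu, 74.9% for A375 over Hth83 and 72.8% for Fadu over Hth83. Of the 38 calls 29 held under all 16 alternatives, among them all 6 for PGD and all 6 for TALDO1. In TPM the 7 genes together made up 778 to 797 TPM in Control Hth83, 686 to 700 TPM in Control Fadu, 610 to 630 TPM in Control A375 and 521 to 541 TPM in Control Cal27. Such sums rest on the lengths behind the TPM.

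The comparison of CAP with Control in each line asked how these transcripts differed 24 h after plasma. Fadu stood apart for PGD, TALDO1, TKT and ME1. There 6 of the 7 genes fell after CAP and none rose, while of all 19152 genes tested 53.3% passed, 27% lower and 26.3% higher. For PGLS and RPE no difference in CAP effect between Fadu and another line passed. In Cal27, A375 and Hth83 PGD rose, and of the 7 only PGLS (Cal27, Hth83) and TALDO1 (Cal27) fell. In Fadu the CAP and Control libraries did not overlap for 6 of the 7 genes, against 58.6% of all genes. Fewer cells of a type and less RNA per cell cannot be told apart in such bulk samples.

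**Figure D2:**
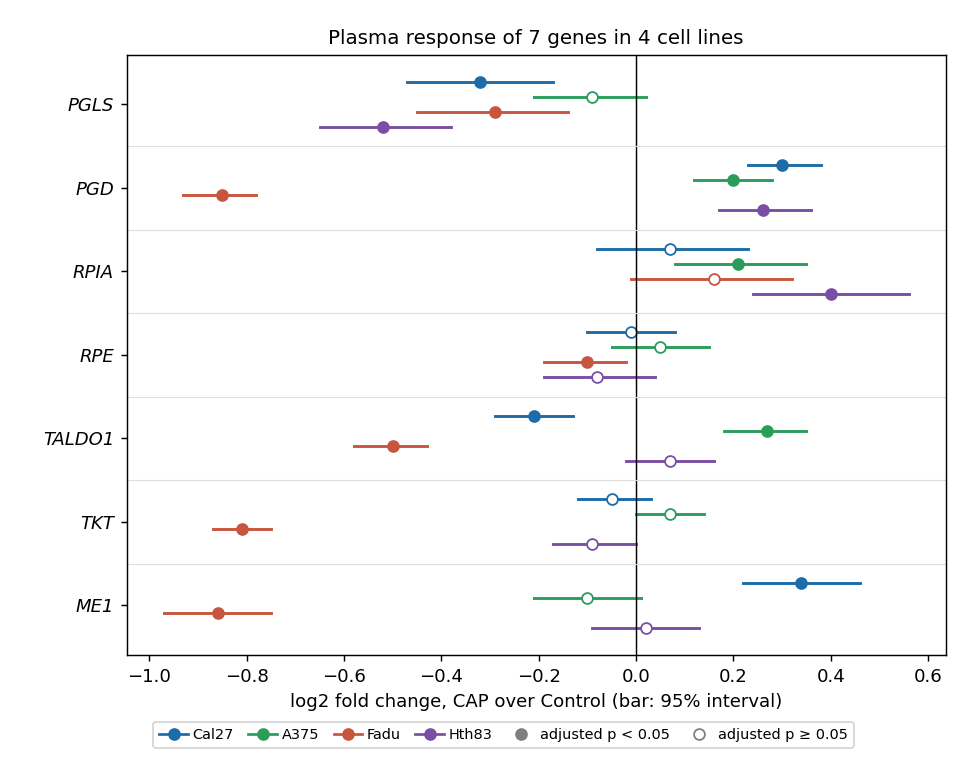
Log2 fold change of CAP over Control for the 7 genes in the 4 lines, with bars for the 95% interval and filled points for an adjusted p under 0.05. In Fadu PGD, TKT and ME1 lie between -0.86 and -0.81 and in the other 3 lines between -0.10 and 0.34.

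In Fadu PGD was at 130, 120 and 125 CPM in CAP libraries, against 235, 212 and 231 CPM in Control libraries. The groups were far apart, and the fall was 44.6% (log2 fold change -0.85 ± 0.04, SE, edgeR adjusted p = 4.33e-34). TKT was at 453, 425 and 427 CPM in CAP libraries, against 774, 756 and 753 CPM in Control libraries. TKT thus fell by 42.9% (log2 fold change -0.81 ± 0.03, edgeR adjusted p = 4.67e-42). ME1, which makes NADPH from malate, was at 43.0, 37.3 and 37.3 CPM in CAP libraries and 72.3, 68.3 and 72.0 CPM in Control libraries (-0.86 ± 0.05, edgeR adjusted p = 1.33e-25). Its fall of 44.8% was close in size to that of PGD.

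TALDO1 fell less in Fadu, at 115, 113 and 117 CPM in CAP libraries and 163, 163 and 162 CPM in Control libraries (-0.50 ± 0.04, edgeR adjusted p = 5.06e-21). PGLS was at 21.4, 21.7 and 19.3 CPM in CAP libraries and 25.7, 24.4 and 26.3 CPM in Control libraries (-0.29 ± 0.08, edgeR adjusted p = 0.000953). Both groups of libraries were separate for each of these genes. These 5 calls in Fadu held under all 17 alternatives, with PGD between -0.89 and -0.75. RPE differed by 6.86% only, at 97.3 ± 2.15 CPM in CAP libraries and 105 ± 2.29 CPM in Control libraries (-0.10 ± 0.04, edgeR adjusted p = 0.0347). That call was lost in 10 of 17 alternatives, with a log2 fold change of 0 on library size only (adjusted p = 0.971) and adjusted p of 0.0504, 0.0846 and 0.16 without Control library 1, 2 or 3 and 0.126 without CAP library 1. RPIA, at 22.1, 21.7 and 23.2 CPM in CAP libraries and 22.4, 17.8 and 20.0 CPM in Control libraries, did not pass (0.16 ± 0.08, 95% interval -0.01 to 0.32, edgeR adjusted p = 0.102). It passed without the first Control library (0.25, adjusted p = 0.0204) and on library size only (0.26, adjusted p = 0.00482).

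**Figure D3:**
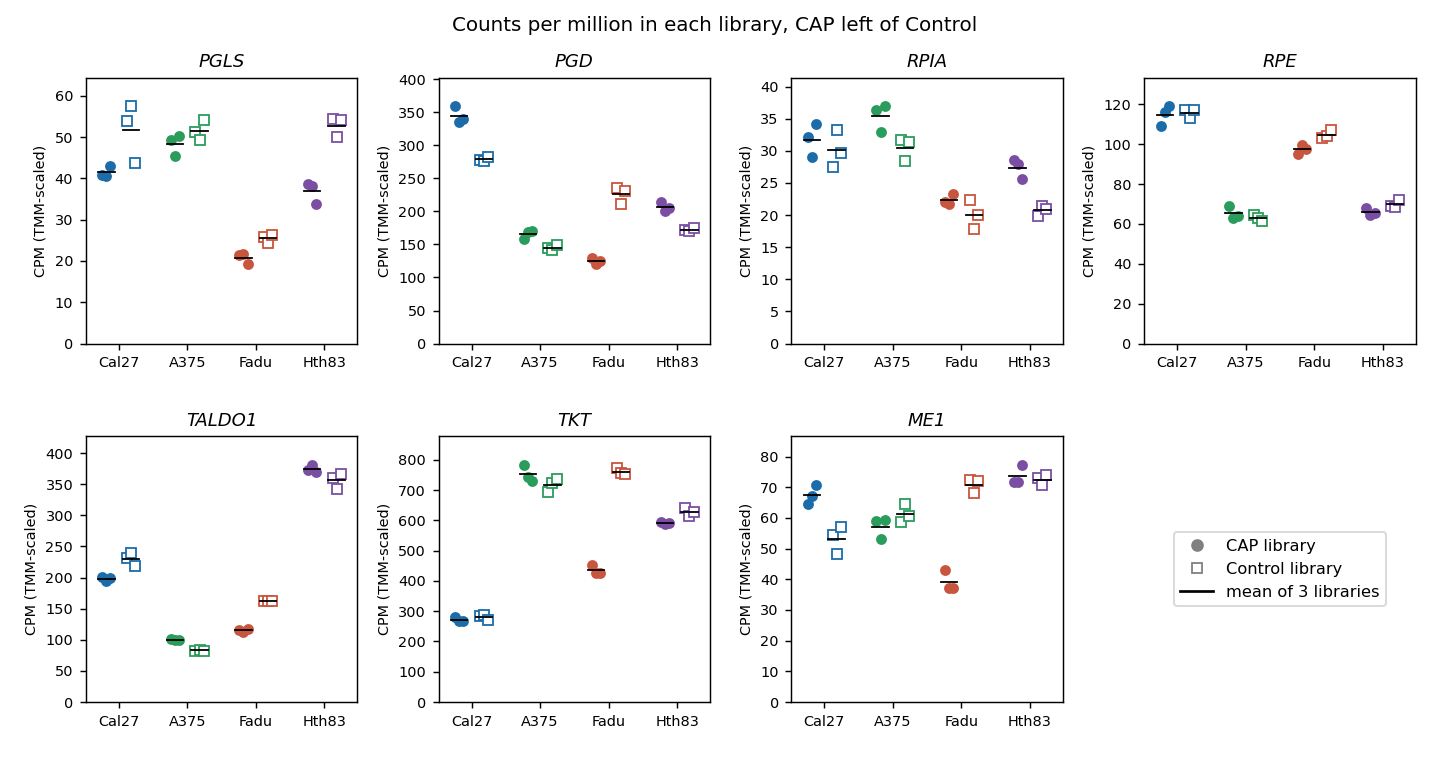
TMM-scaled CPM of each library for the 7 genes, on axes that start at 0, with filled CAP points left of open Control points in each line and a bar at the mean of 3 libraries. In Fadu the CAP libraries of PGD (120 to 130 CPM), TKT (425 to 453 CPM) and ME1 (37.3 to 43.0 CPM) lie far below the Control libraries, and in the other lines PGD lies above them.

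In Cal27 PGD and ME1 rose and PGLS and TALDO1 fell, and the other 3 did not pass. Of the 17371 genes tested there 45.1% passed, 21.9% higher and 23.2% lower, and the groups did not overlap for 4 of the 7, against 52.7% of all genes. PGD was at 359, 335 and 340 CPM in CAP libraries, against 278, 277 and 282 CPM in Control libraries (0.30 ± 0.04, edgeR adjusted p = 1.84e-08). ME1 was at 64.4, 67.3 and 70.6 CPM in CAP libraries, against 54.3, 48.2 and 57.0 CPM in Control libraries (0.34 ± 0.06, edgeR adjusted p = 1.1e-05). For both genes every CAP library lay above every Control library, and both calls held under all 17 alternatives. TALDO1 was at 201, 195 and 199 CPM in CAP libraries and 232, 240 and 219 CPM in Control libraries (-0.21 ± 0.04, edgeR adjusted p = 2.76e-05).

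PGLS in Cal27 was at 40.8, 40.5 and 43.1 CPM in CAP libraries and 53.8, 57.4 and 43.8 CPM in Control libraries (-0.32 ± 0.07, edgeR adjusted p = 0.00087). The third Control library lay next to the CAP libraries. The log2 fold change was -0.42 without it and -0.24 at the other end of the leave-one-out range. RPIA, RPE and TKT had log2 fold changes of 0.07 ± 0.08, -0.01 ± 0.04 and -0.05 ± 0.04 and did not pass. The falls in Cal27 depended on the scale. On log2(TPM + 1) the median of all genes moved to 0.198, the PGLS value was -0.07 and no longer passed, and TALDO1 was at 0.02. Relative to that median PGLS was at -0.27, TALDO1 at -0.18, PGD at 0.34 and ME1 at 0.25.

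In A375 PGD, RPIA and TALDO1 rose and none fell, while of 19604 genes 50.5% passed, 25.7% higher and 24.8% lower. TALDO1 was at 101, 98.9 and 99.8 CPM in CAP libraries and 82.7, 84.2 and 82.1 CPM in Control libraries (0.27 ± 0.04, edgeR adjusted p = 3.17e-06), a call that held under all 17 alternatives. PGD was at 158, 169 and 171 CPM in CAP libraries and 145, 141 and 149 CPM in Control libraries (0.20 ± 0.04, edgeR adjusted p = 0.00011). Its value was 0.10 on log2(TPM + 1), where it no longer passed. RPIA was at 36.3, 32.9 and 36.9 CPM in CAP libraries and 31.7, 28.4 and 31.3 CPM in Control libraries (0.21 ± 0.07, edgeR adjusted p = 0.00767). Each CAP library exceeded each Control library for these 3 genes, against 57.9% of all genes without overlap in either direction. RPIA missed the threshold without the second Control library (0.17, adjusted p = 0.0602), without the third CAP library (0.18, adjusted p = 0.0522) and on 5 other settings. The 4 others had log2 fold changes of -0.09 ± 0.06 (PGLS), 0.05 ± 0.05 (RPE), 0.07 ± 0.03 (TKT) and -0.10 ± 0.05 (ME1) and did not pass. PGLS passed as lower on library size only (-0.16, adjusted p = 0.0131), on log2(TPM + 1) (-0.18, adjusted p = 0.0311) and on log2(TPM + 0.1) (-0.18, adjusted p = 0.0323), and ME1 on library size only (-0.17, adjusted p = 0.00826).

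In Hth83 PGD and RPIA rose and PGLS fell, while of 17279 genes 50.1% passed, 25.9% higher and 24.2% lower. PGLS was at 38.6, 38.2 and 33.8 CPM in CAP libraries and 54.3, 49.9 and 54.0 CPM in Control libraries (-0.52 ± 0.07, edgeR adjusted p = 1.36e-07). PGD was at 215, 201 and 205 CPM in CAP libraries and 172, 170 and 175 CPM in Control libraries (0.26 ± 0.05, edgeR adjusted p = 1.26e-05). RPIA was at 28.6, 27.9 and 25.6 CPM in CAP libraries and 19.9, 21.4 and 21.0 CPM in Control libraries (0.40 ± 0.08, edgeR adjusted p = 0.000103). None of these groups of libraries overlapped, and the 3 calls held under all 17 alternatives. RPE (-0.08 ± 0.06), TALDO1 (0.07 ± 0.04), TKT (-0.09 ± 0.04) and ME1 (0.02 ± 0.05) did not pass. The groups did not overlap for 6 of the 7, against 57.2% of all genes. TKT passed with DESeq2, with a stricter filter and in the joint fit (-0.09, adjusted p = 0.0248 there), and TALDO1 on library size only (0.12) and on log2(TPM + 1) (0.13, adjusted p = 0.0149).

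Each gene's CAP effect was then compared between lines in 1 fit of the 24 libraries. The effect differed over the lines for 5 of the 7 genes (PGLS, PGD, TALDO1, TKT and ME1), against 56.9% of 23642 genes. RPIA (edgeR adjusted p = 0.0796, and 0.0234 to 0.138 over the alternatives, 8 of 31 of which passed) and RPE (edgeR adjusted p = 0.31, and 0.000379 by limma on log2(TPM + 1)) did not pass. The libraries without which RPIA passed were Cal27 Control 1 (0.0234) and CAP 3 (0.03), A375 CAP 2 (0.0467) and Fadu Control 1 (0.0473), Control 2 (0.0244) and CAP 3 (0.0459). PGD, TALDO1, TKT and ME1 each differed between Fadu and every one of the other 3 lines. For PGD the effect in Cal27 minus that in Fadu was 1.14 ± 0.06, that in A375 minus Fadu 1.01 ± 0.06, and that in Fadu minus Hth83 -1.10 ± 0.06 on the log2 scale. For TKT the same differences were 0.74 ± 0.05, 0.84 ± 0.05 and -0.70 ± 0.05, and for ME1 1.18 ± 0.08, 0.72 ± 0.08 and -0.86 ± 0.08. Of the 23642 genes 38.4%, 36% and 35.7% differed in these 3 pairs.

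Among Cal27, A375 and Hth83, 8 of 21 such tests passed, where 35.5% (Cal27 minus A375), 35% (Cal27 minus Hth83) and 27.3% (A375 minus Hth83) of all genes passed. For PGD the differences among these lines were 0.13 ± 0.06 (Cal27 minus A375), 0.04 ± 0.06 (Cal27 minus Hth83) and -0.09 ± 0.06 (A375 minus Hth83), and none passed. The TALDO1 effect differed in each of these pairs, at -0.46 ± 0.05, -0.28 ± 0.05 and 0.18 ± 0.05. The ME1 effect in Cal27 exceeded those in A375 (by 0.46 ± 0.08) and Hth83 (by 0.32 ± 0.08). The PGLS effect in A375 minus that in Hth83 was 0.41 ± 0.10 (edgeR adjusted p = 0.000948).

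Averaged over the 4 lines, PGLS was lower after CAP (-0.31 ± 0.04, edgeR adjusted p = 2.44e-10) and RPIA higher (0.20 ± 0.04, edgeR adjusted p = 3.19e-05), where 18.3% and 20.6% of all genes were lower and higher. TKT, ME1 and TALDO1 also averaged lower (-0.23 ± 0.02, -0.16 ± 0.03 and -0.10 ± 0.02), averages that include the Fadu values. PGD (-0.03 ± 0.02, adjusted p = 0.313) and RPE (-0.04 ± 0.02, adjusted p = 0.159) did not pass. In TPM the 7 genes summed to 449 to 458 TPM in CAP and 686 to 700 TPM in Control libraries of Fadu. The sums were 622 to 629 against 521 to 541 TPM in Cal27, 620 to 626 against 610 to 630 TPM in A375 and 809 to 828 against 778 to 797 TPM in Hth83. All these sums rest on the lengths behind the TPM. In Cal27 the scale itself moved the median of all genes, to 0.198 on log2(TPM + 1). By TMM the median log2 fold change of the 7 genes in Cal27 was -0.01.

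Genes whose level followed each member most closely were ranked by Pearson's r over the 24 libraries with the mean of each line removed, among 10284 genes. All points share their libraries and the CAP against Control contrast, so the values are a description. PGD was followed by ACADSB, NCOA2 and HEG1 (r of 0.95 each), TKT by S100A10, CYLD and IRF2BPL (0.97, 0.96 and 0.95), and ME1 by ARHGAP35, TRIM44 and KAT6B (0.97, 0.97 and 0.96). TALDO1 was followed by MMP14, LRATD2 and CIC (0.95, 0.94 and 0.93) and PGLS by SND1, ALG12 and TPT1 (0.92, 0.90 and 0.90). RPIA (CSTF2T, 0.87) and RPE (GFM2, 0.81) had no gene above those values.

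Of 15 other genes of pentose metabolism, 2 rose, 2 fell and 6 did not pass in Cal27, 3, 3 and 5 in A375, 2, 6 and 3 in Fadu and 4, 1 and 5 in Hth83, the rest being too low to test. Over all genes tested 45.1%, 50.5%, 53.3% and 50.1% passed in Cal27, A375, Fadu and Hth83, about as many higher as lower. H6PD, which makes NADPH in the endoplasmic reticulum from the same kind of sugar phosphate, fell in Fadu to 22.4 ± 1.81 CPM in CAP libraries, against 51.2 ± 1.15 CPM in Control libraries (-1.19 ± 0.07, edgeR adjusted p = 6.42e-30). It also fell in A375 (-0.82 ± 0.04) and Hth83 (-0.82 ± 0.15) and rose in Cal27 (0.32 ± 0.06). PRPS1, which turns ribose 5-phosphate into the activated form used for nucleotides, rose in A375 (0.33 ± 0.05), Fadu (0.45 ± 0.06) and Hth83 (0.48 ± 0.05) and did not pass in Cal27 (-0.11 ± 0.05, edgeR adjusted p = 0.0514). DERA, which splits deoxyribose phosphate, fell in Cal27 (-0.19 ± 0.06) and Fadu (-0.56 ± 0.06), rose in Hth83 (0.41 ± 0.06) and did not pass in A375 (0.10 ± 0.05, edgeR adjusted p = 0.127).

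Against shares of 45.1%, 50.5%, 53.3% and 50.1% of all genes that passed in Cal27, A375, Fadu and Hth83, 12 other genes of NADPH supply were counted. Of these 3 rose, 1 fell and 7 did not pass in Cal27, 3, 3 and 5 in A375, 3, 7 and 1 in Fadu and 5, 4 and 1 in Hth83. Their median log2 fold change was -0.54 in Fadu, beside -0.50 for the 7 genes and 0.01 for all genes tested, and 0.04, -0.04 and 0.06 in Cal27, A375 and Hth83. IDH1, the cytosolic isocitrate dehydrogenase, was at 59.7 ± 4.32 CPM in CAP libraries of Fadu and 179 ± 2.8 CPM in Control libraries (-1.59 ± 0.04, edgeR adjusted p = 5.45e-52), beside -0.85 for PGD and -0.86 for ME1. IDH2, its mitochondrial counterpart, fell in Cal27, A375, Fadu and Hth83 (-0.26 ± 0.06, -0.55 ± 0.06, -0.64 ± 0.05 and -0.43 ± 0.08). NADK, which makes NADP+ by phosphorylating NAD+, rose in A375 (0.43 ± 0.05), Fadu (0.17 ± 0.05) and Hth83 (0.13 ± 0.05) and did not pass in Cal27 (-0.04 ± 0.04). Of the folate enzymes, MTHFD1 rose in A375 (0.27 ± 0.04), Fadu (0.16 ± 0.03) and Hth83 (0.46 ± 0.05) and did not pass in Cal27 (-0.09 ± 0.04). MTHFD2 fell in A375 (-0.83 ± 0.05), Fadu (-0.54 ± 0.03) and Hth83 (-1.32 ± 0.05) and did not pass in Cal27 (0.01 ± 0.03). ALDH1L2 rose in Cal27 (0.53 ± 0.05), fell in A375 (-1.75 ± 0.10) and Fadu (-0.62 ± 0.08), and rose in Hth83 at under 1 CPM (1.26 ± 0.51).

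**Figure D4:**
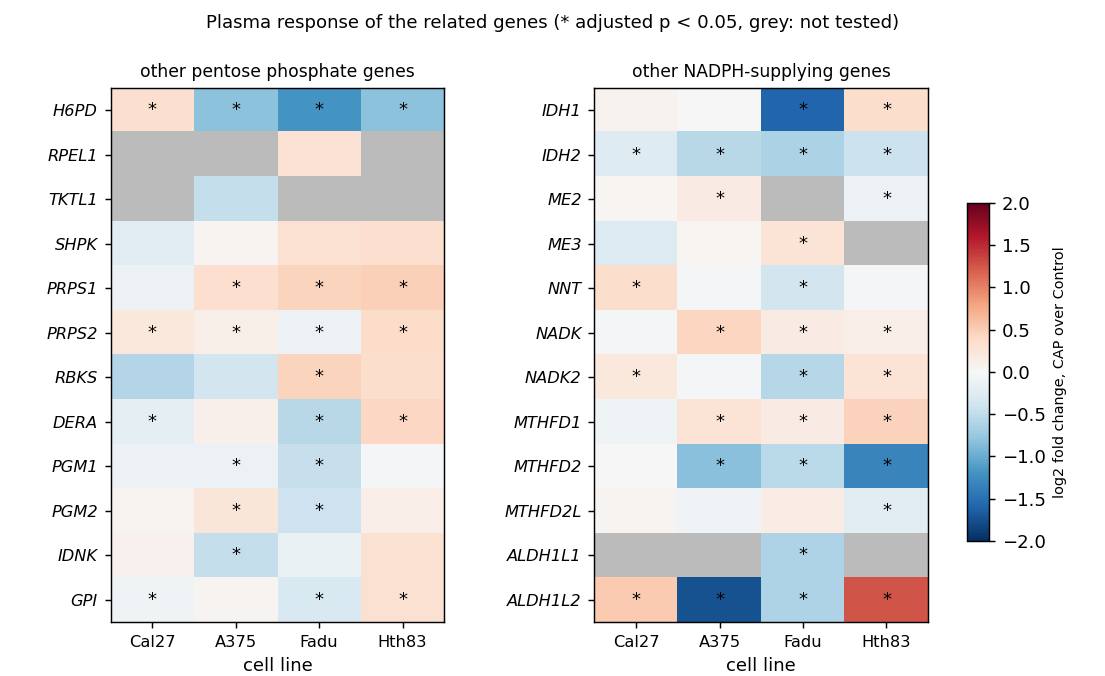
Log2 fold change of CAP over Control in the 4 lines for the other genes of pentose metabolism (left) and NADPH supply (right), as colour, with an asterisk for an adjusted p under 0.05 and grey where a gene was too low to test. Fadu has the most asterisks on blue in both panels, 6 and 7, with IDH1 (-1.59) and H6PD (-1.19) the deepest in that line. Of all genes tested in Fadu 27% fell.

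The genes that spend NADPH and those of the NRF2 circuit are given for context. Beside both lists, 45.1%, 50.5%, 53.3% and 50.1% of all genes passed in Cal27, A375, Fadu and Hth83, about as many higher as lower. Of 13 NADPH-using genes, 5 rose, 5 fell and 2 did not pass in Cal27, 7, 2 and 3 in A375, 1, 10 and 2 in Fadu and 7, 3 and 3 in Hth83. NQO1, a quinone reductase, rose in Cal27 (0.59 ± 0.04), A375 (0.72 ± 0.04) and Hth83 (0.62 ± 0.06) and fell in Fadu (-0.59 ± 0.03). TXNRD1, thioredoxin reductase, rose in Cal27 (0.71 ± 0.03) and A375 (0.66 ± 0.04) and fell in Fadu (-0.54 ± 0.03) and Hth83 (-0.42 ± 0.05). Biliverdin reductase B (BLVRB) fell in each line (-0.55 ± 0.05 in Cal27, -0.46 ± 0.10 in A375, -0.60 ± 0.08 in Fadu and -0.41 ± 0.10 in Hth83). Of 9 NRF2 circuit genes, 7 rose and 2 fell in Cal27, 6 rose, 2 fell and 1 did not pass in A375, 1 rose, 6 fell and 2 did not pass in Fadu, and 4 rose, 4 fell and 1 did not pass in Hth83. NFE2L2 itself fell in Cal27 (-0.44 ± 0.04), A375 (-0.17 ± 0.05), Fadu (-0.83 ± 0.04) and Hth83 (-0.84 ± 0.05). GCLM, a subunit of the glutathione-making ligase, rose in Cal27 (1.06 ± 0.05), A375 (1.24 ± 0.07) and Hth83 (0.44 ± 0.07) and fell in Fadu (-0.65 ± 0.04). SLC7A11, the cystine transporter subunit, rose in Cal27 (1.08 ± 0.04) and fell in A375 (-1.0 ± 0.08), Fadu (-1.49 ± 0.04) and Hth83 (-1.89 ± 0.05). GCLC, the catalytic subunit of that ligase and named here after its values were seen, rose in Cal27 (0.94 ± 0.04) and A375 (0.30 ± 0.05) and fell in Fadu (-1.34 ± 0.04) and Hth83 (-0.69 ± 0.06).

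ME2, a mitochondrial malic enzyme, was too low to test in Fadu. Its 6 Fadu libraries held 2 counts in all, out of 197.4 M, whereas each library of Cal27 held 1646 to 2438, of A375 2956 to 5091 and of Hth83 4099 to 5355. The genes next to it on chromosome 18 were then looked up, a choice made after the ME2 values were seen. In GENCODE 29 (GRCh38) ME2 lies at chr18:50878734-50954257, plus strand. The downstream neighbours ELAC1, SMAD4 and MEX3C had 0 counts in all 6 Fadu libraries, a limit of 0.0152 CPM over the 6, whereas ELAC1 and MEX3C had at least 74 and 1234 counts in every library of the other lines and SMAD4 2744 to 3696 in those of Hth83. On the upstream side MAPK4 and MRO were at 0 in Fadu and at most 8 and 6 in Cal27 and 4 and 0 in Hth83, against 56 to 124 and 25 to 51 in A375, and SKA1, CXXC1 and MBD1 were counted in Fadu at 433 to 723, 460 to 751 and 1066 to 1471. The floor covers counting error only. No Fadu library, CAP or Control, had more than 1 ME2 count. Of the malic enzymes ME1 and ME3 could be tested in Fadu, ME1 at 2.38 ± 0.175 TPM in CAP and 4.25 ± 0.11 TPM in Control libraries. ME3 was at 9.03 ± 0.709 CPM in CAP and 7.45 ± 0.357 CPM in Control libraries of Fadu (0.28 ± 0.12, edgeR adjusted p = 0.0428).

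**Figure D5:**
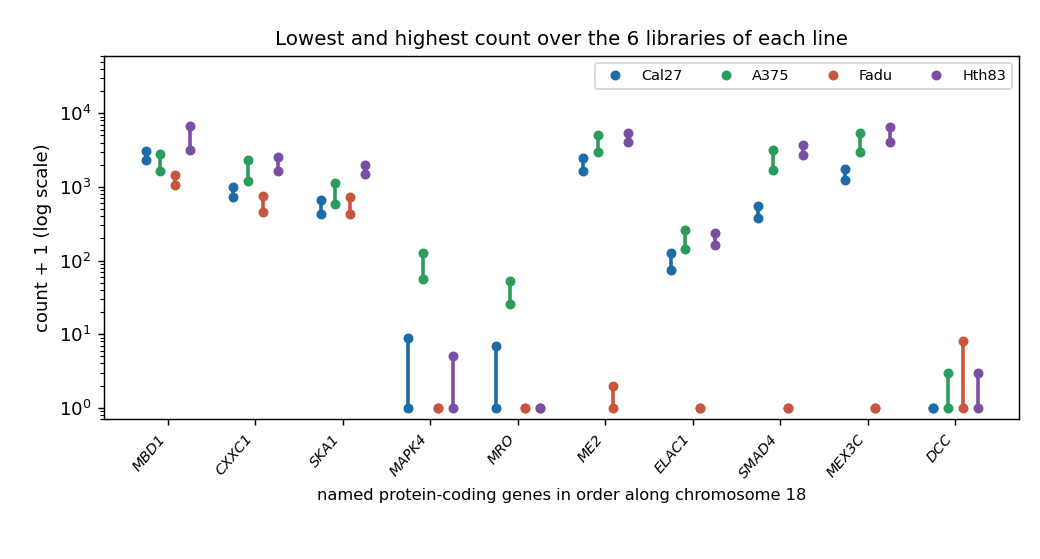
Lowest and highest count (plus 1, log axis) over the 6 libraries of each line for ME2 and its named protein-coding neighbours, in their order along chromosome 18. In Fadu ME2 has at most 1 count a library, and ELAC1, SMAD4 and MEX3C have 0, while SKA1, CXXC1 and MBD1 are counted in all 4 lines.

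Close copies of the 7 genes had few counts. PGDP1 had at most 3 counts and RPEL1, a protein-coding relative of RPE, 1 to 18, against at least 3883 for PGD and 1848 for RPE in any library. The TKT relatives TKTL1 and TKTL2 had at most 48 and 4, against at least 7671 for TKT. RPE overlaps KANSL1L on the opposite strand (275 to 901 counts) over 837 bases. PGLS overlaps AC010618.2 (2 to 35 counts) over 2236 bases and AC010618.3 (40 to 766 counts) over 261 bases. ME1 overlaps AL391416.1 (0 to 5 counts) over 994 bases. These too lie on the opposite strand. The use of strand in counting is unknown here, so reads in these overlaps cannot be assigned.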

How the data were processed

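RNA of 24 libraries (4 cell lines, 3 CAP and 3 Control libraries each) was extracted (Trizol), converted to libraries (SMARTER mRNA-Seq kit) and read on a HiSeq3000 instrument, per the labels' protocols. The submitters' processing notes name HISAT2 and GRCh38. No version, counting tool, annotation, strand setting or gene length is given in the sources used here. The authors deposited raw counts per gene and, separately, TPM for each line, and the deposited TPM are those counts over 1 length for each gene, rescaled in each library. A symbol table named 61369 of the 61533 identifiers and GENCODE 29 another 105, while 59 had no name.

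Counts were fitted with edgeR 4.0.16 (R 4.3.3) by the quasi-likelihood test with robust dispersion, separately in each line. TMM scaled the libraries and filterByExpr (a count of 10, a total of 15) chose the genes. P-values were adjusted by Benjamini-Hochberg over every gene tested, and calls needed an adjusted p under 0.05. Errors of log2 fold changes are standard errors. Intervals are at 95%. CPM are TMM-scaled. Differences between lines, their mean and the untreated baseline came from joint fits of 24 or 12 libraries. The biological coefficient of variation was 5.07% to 6.17%. Total counts were 27.9 to 49.5 M. The tests were also run on simulated counts in which a small set of genes had been changed, as many up as down. In the data 45.1% to 53.3% of genes passed in a line, so that run cannot show how the scaling behaves here. Alternatives were DESeq2 1.42.0, limma 3.58.1 on log2(TPM + 1) and log2(TPM + 0.1), other scalings and filters, a joint fit, a replicate block and leaving out each library.

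The members, gene lists, tests and alternatives were chosen with earlier results of these data known. Beyond the members, the genes named were those of a list that passed in the same direction in 4 lines, and in each line the largest rise and fall of a list with at least 10 CPM. Not every gene so chosen is reported, and values of a gene so chosen in 1 line are given in the others for comparison.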

Additional observations from a re-analysis of the deposited data

Results flagged for a closer look

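The CAP effect differed over the 4 lines for 5 of the 7 genes by an F test for interaction of line and treatment (edgeR, adjusted over 23642 genes, of which 56.9% passed), which is why they are listed here. The adjusted p was 3.81e-23 for PGD, 8.28e-21 for TKT, 3.89e-16 for TALDO1, 4.05e-16 for ME1 and 0.00388 for PGLS. By size of F, PGD, TKT, TALDO1 and ME1 lay in the top 1.01%, 1.81%, 5.49% and 5.53% of genes and PGLS had 45.4% of genes above it. For PGD, TKT and ME1 the log2 fold changes in Fadu were -0.85, -0.81 and -0.86, while in the other lines PGD lay at 0.20 to 0.30, TKT at -0.09 to 0.07 and ME1 at -0.10 to 0.34. TALDO1 fell in Fadu (-0.50) and Cal27 (-0.21) and rose in A375 (0.27), and PGLS was lowest in Hth83 (-0.52) and nearest to 0 in A375 (-0.09). Fadu was grown in another medium than the other lines, so line and medium cannot be told apart. No group held enough libraries for a test of single outlying samples.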

How the results depend on the processing

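Of 1365 member values recomputed under the alternatives, 1243 kept their direction and side of the threshold, 44 lost the threshold, 33 gained it and 45 changed direction. PGD, TKT, ME1, TALDO1 and PGLS in Fadu, PGD and ME1 in Cal27, TALDO1 in A375 and PGD, PGLS and RPIA in Hth83 kept their calls under all 17 alternatives, as did the 5 interaction calls under all 31. On library size only, the log2 fold change was 0.07 for RPE and 0.03 for TKT in Cal27, -0.02 for RPE and 0 for TKT in A375, and 0 for RPE in Fadu. With a stricter filter (CPM of 1 in 3 libraries) RPE in Cal27 was at 0. On log2(TPM + 1), with or without a filter, Cal27 values were 0.22 for RPE, 0.02 for TALDO1 and 0.18 for TKT, and A375 values -0.04 for RPE and -0.02 for TKT. On log2(TPM + 0.1) they were 0.23, 0.02 and 0.19 in Cal27 and -0.04 and -0.02 in A375. The scale itself moved the median of all genes, to 0.198 in Cal27 on log2(TPM + 1) and 0.114 in Fadu on library size only, and the share of called genes that were higher in Cal27 to 83.4% and 62.4%, against 48.5%. Without a filter on log2(TPM + 1) A375 had 6057 calls in place of 9900 and 1 member in place of 3, where the cause was not tested.

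Between untreated lines, PGLS in Cal27 over Hth83 was at 0.02 with RLE factors. On library size only PGLS was at -0.07 and RPIA at -0.10 (Cal27 over A375), TKT at 0 (A375 over Fadu) and PGLS at 0.03 (A375 over Hth83). On log2(TPM + 1) these were -0.32, -0.30, 0.02 and 0.03, and RPE in Cal27 over Fadu was -0.07. On log2(TPM + 0.1) they were -0.32, -0.34, 0.02, 0.03 and -0.07. The median of all genes in Cal27 over A375 was itself -0.16, -0.40 and -0.33 by TMM, library size and log2(TPM + 1).

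Leaving out 1 library at a time gave ranges of -0.03 to 0.02 for RPE in Cal27, -0.02 to 0.04 for ME1 in Hth83, -0.07 to 0.05 for ME1 in untreated Cal27 over A375 and -0.09 to 0.10 for PGLS in untreated Cal27 over Hth83. Leaving out single Control libraries ended the calls between untreated lines for PGLS in Cal27 over A375 (0.11 to 0.30, without Cal27 1 or 2 or A375 2), TKT in A375 over Fadu (-0.09 to -0.05, without A375 1 or 2 or Fadu 1) and RPIA in Fadu over Hth83 (-0.30 to -0.14, without Fadu 2 or Hth83 2). Member calls ranged over 4 to 4 in Cal27, 2 to 3 in A375, 5 to 6 in Fadu, 3 to 3 in Hth83 and 5 to 6 for the interaction. Calls over all genes ranged over 6956 to 7820, 8739 to 9676, 9431 to 9737, 7792 to 8506 and 13075 to 13382. Libraries of 1 replicate number did not deviate together (12 correlations of -0.12 to 0.09, against -0.15 to 0.20 for other numbers). With 3 libraries a group this cannot show whether they shared a culture or day. With the replicate block 7704 genes passed in Cal27, 9946 in A375, 10183 in Fadu, 8652 in Hth83 and 13151 for the interaction (7832, 9900, 10200, 8657 and 13457 without it), and 0 of 35 member calls changed. The lowest count of a member in any library was 593 (RPIA), and the effect of depth on the calls was not tested.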
